A study of Rattus norvegicus with 8 samples.

Results

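Afp, Gpc3, Dlk1, Igf2, H19, Cd24, Thy1 and Sox4 are used in the liver field as marks of the fetal liver, of liver progenitor cells and of liver tumours. They were taken as 8 of the 27110 gene symbols that name probes on a rat expression array, by the gene name in the scanner files, and 12 probes carried these names. RNA was hybridised from cells cut out of frozen rat liver sections by laser microdissection (LMD), with 2 samples of mature hepatocytes (MHs), 3 samples of clusters of small hepatocyte-like progenitor cells (SHPCs) from control livers and 3 of such clusters from livers that had received bone marrow-derived mesenchymal cells (BM-MCs). All rats were F344. The labels give every sample as DPPIV+, while by the methods recipients were DPPIV- females and donor cells came from DPPIV+ males. Recipients had been treated with retrorsine (Ret), an alkaloid that can block the division of hepatocytes, and then underwent partial hepatectomy (PH). The methods describe this treatment for all recipients, and the MHs are labelled as cut, like control SHPCs, from recipient control livers, so that the MHs were also exposed to Ret. BM-MCs were an unpurified primary culture given through the spleen. The sources used here do not give the recipients' age, and the methods state a fixed time of harvest after transplantation that the labels do not repeat. No source links a sample to its animal, and p-values therefore reflect the spread among these samples, which may be technical.

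Liver genes of this kind are active while hepatoblasts divide, are largely silenced after birth and can return in regeneration and cancer. H19 and Igf2 are neighbouring imprinted genes that share enhancers, H19 being expressed from the maternal and Igf2 from the paternal copy, and Dlk1 is the paternally expressed gene of another imprinted cluster. Afp and Gpc3 encode proteins used as serum and tissue markers of hepatocellular carcinoma, and Cd24, Thy1 and Sox4 have been used to mark progenitor or immature cells.

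The probes behind the genes on which the results turn are shown first, since each level below is the brightness of a single such probe. Each probe has 60 bases. H19, a non-coding RNA, is given whole, and of Afp, Gpc3 and Cd24 the first 30 bases are given, read 5′ to 3′ from the scanner files. In the array's annotation, build rn4, the H19 probe lies at chr1:202822987-202823046 on the minus strand, the Afp probe at chr14:19092583-19092642 on the minus strand, the Gpc3 probe at chrX:139192547-139192606 on the minus strand and the Cd24 probe at chr20:47507471-47507530 on the plus strand. Their place within exons or UTRs was not determined here.
H19: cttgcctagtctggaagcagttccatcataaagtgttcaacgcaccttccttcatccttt
Afp: agcttttcggtttgatggtaactggtggag
Gpc3: agcaacatggaaatcagaaggacaacgaga
Cd24: acctcacagacccgaagctactgtgtgtgt

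H19 is also the host transcript of miR-675, whose mature arms are shown with the seed (bases 2 to 8) in capitals as RefSeq gives them in build GRCr8, at chr1:207161800-207161821 for the 5p arm and chr1:207161766-207161786 for the 3p arm, both on the minus strand. The expression array measured the H19 transcript and not these mature arms.
rno-miR-675-5p: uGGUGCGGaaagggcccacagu
rno-miR-675-3p: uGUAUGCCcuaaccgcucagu

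Levels are log2 signals minus the 75th percentile of the array, so that 75% of the probes lie at or under a level of 0. The scanner marks whether a spot is well above background, and of the 12 probes 10 carried this mark on 3 or more of the 7 arrays whose marks are complete and were tested with limma, and each of the 8 genes had at least 1 tested probe. A gene with several tested probes is given by its brightest. The scanner file of control SHPC replicate 2 is incomplete and holds background marks for some of its spots only. All 8 arrays shared 1 slide. Its first set of arrays held the MHs with control SHPC replicates 1 and 2, and its second set held the remaining control SHPC sample with those given BM-MCs. The share of marked spots well above background was 57.0% to 61.5% per array, and saturation was marked on none. All 12 mature hepatocyte markers of a list that includes Alb, Ttr and Hnf4a were tested, and their mean level ran from 4.79 to 4.88 in MHs, from 4.81 to 5.28 in control SHPCs and from 4.88 to 5.15 in SHPCs with BM-MCs, each of the 12 being well above background on all 7 arrays with complete marks.

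Control SHPCs held more H19 RNA than MHs, 47.0-fold on average, and H19 was the only gene of the 8 that passed the adjusted threshold in this comparison. Afp, Gpc3, Cd24 and Sox4 were also at higher levels in each of the 3 control SHPC samples than in both MH samples, with mean differences between 0.21 and 1.04 on the log2 scale, but did not pass. Of the 8 genes, 1 was therefore called, where limma with Benjamini-Hochberg adjustment called 1.13% of all 23111 tested probes. At an unadjusted p under 0.05 from limma it was 4 of 8 (50%) against 19.2% of all probes, and by the methods' t-test 3 of 8 before and 0 after Benjamini-Hochberg adjustment. In 5 of 8 genes (62.5%) every control SHPC sample was above both MHs, against 18.7% of all probes, and in 0 every control SHPC sample was below, against 22.7%. Each gene counts by its brightest tested probe, while all probes count singly. The genes were chosen with earlier results of these data known, so that these shares are a description. The median log2 fold change was 0.42 over the 8 genes and -0.03 over all probes. Markers of other cells lay in both directions. Of 10 Kupffer cell and macrophage markers, all tested, 7 were below both MHs in every control SHPC sample (median -0.64), with mean levels of 1.60 to 1.81 in MHs, 0.82 to 1.33 in control SHPCs and 0.98 to 1.54 with BM-MCs. Of 9 tested of 10 endothelial markers 5 were below (median -0.26), with mean levels of 0.0083 to 0.17, -0.24 to -0.075 and -0.24 to 0.051 in the same order. Of 8 tested biliary markers 4 were above both MHs in every control SHPC sample and 0 below (median 0.74), and of 6 tested T and NK cell markers 3 were above. The 3 tested granulocyte markers had a median of 0.64 with 0 above in every sample, and the 6 tested erythroid markers a median of 0.62 with 1 above and 1 below. None of these 6 lists had a marker called by limma in any comparison, and their part in these levels was not tested.

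Between SHPCs with BM-MCs and the same MHs, the same 5 genes lay above the MHs in every sample, against 16% of all probes, and 0 lay below, against 16.3%. None passed the adjusted threshold, which 0.338% of all probes did. At an unadjusted p under 0.05 from limma it was 3 of 8 (37.5%), namely H19, Afp and Gpc3, against 13.3% of all probes, and the methods' t-test gave 1 of 8 before and 0 after adjustment. The median over the 8 genes was 0.31. Both comparisons use the same 2 MH samples, so that their results are not independent of each other. The MHs lay in the first set of arrays and all samples with BM-MCs in the second. This comparison therefore also crosses the sets, which only the control SHPCs link.

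Between SHPCs with and without BM-MCs none of the 8 genes passed the adjusted threshold, which 0.0216% of all probes did, and limma gave an unadjusted p under 0.05 for H19 and Cd24, both lower with BM-MCs, that is 2 of 8 (25%) against 16.6% of all probes. The methods' t-test gave 1 of 8 before and 0 after adjustment. In Cd24 alone every sample with BM-MCs was below every control SHPC, 1 of 8 (12.5%) against 11.6% of all probes, and in 0 of 8 every sample was above, against 13%. The median over the 8 genes was -0.13, against 0.02 over all probes.

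**Figure D1:**
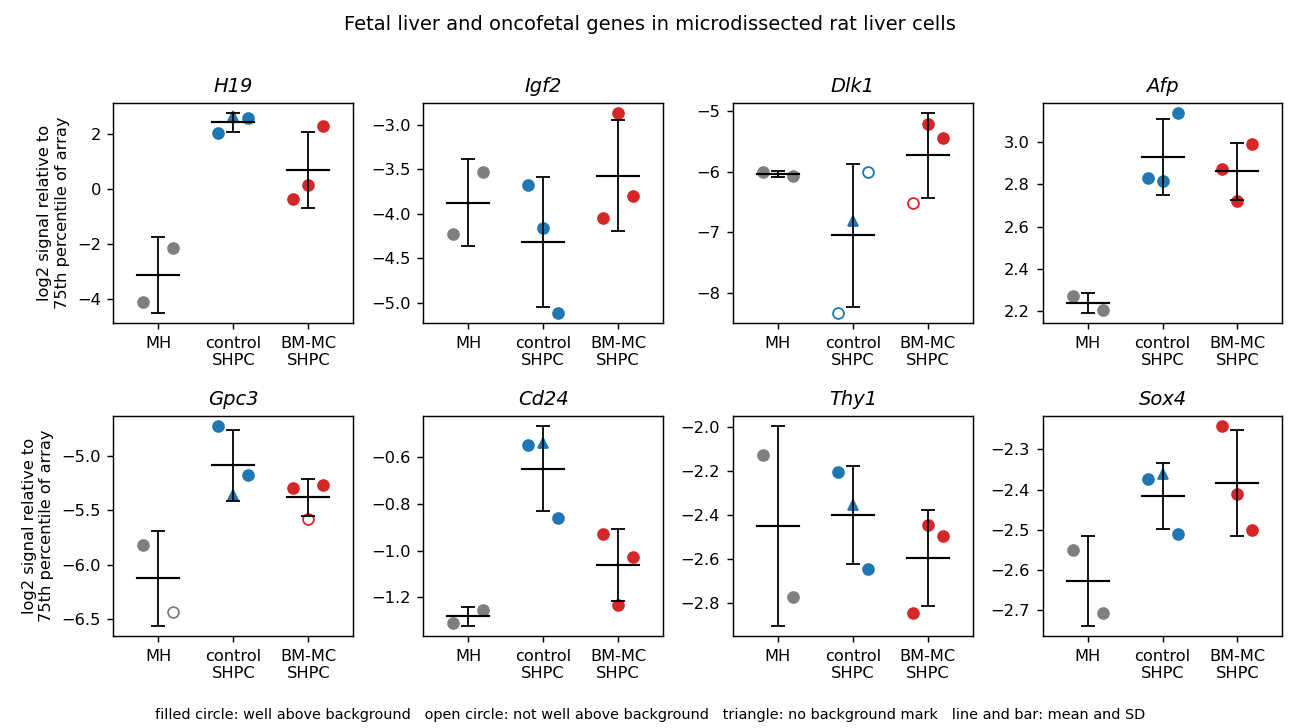
Level of each of the 8 genes in every sample, as log2 signal relative to the 75th percentile of the array (vertical axis, a separate scale for each gene), for MHs, control SHPCs and SHPCs with BM-MCs. Points are samples, open where the probe was not well above background and triangular where the file held no mark, and lines with bars give the mean and SD. Control SHPCs lie between 2.02 and 2.67 for H19 and MHs between -4.11 and -2.16, while the 3 groups overlap in Igf2 and Thy1.

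H19, the non-coding RNA of the Igf2 locus, was at -4.11 and -2.16 in the MHs, at 2.02, 2.67 and 2.58 in control SHPCs and at -0.36, 0.16 and 2.28 in SHPCs with BM-MCs. In unscaled signal these were 86.6 and 380.1 in MHs, from 6239.7 to 11049.4 in control SHPCs and from 1356.3 to 6627.7 with BM-MCs. Every SHPC sample of either kind was above both MHs, control SHPCs lay close together, and the samples with BM-MCs were spread over a wide range whose highest, replicate 3, lay within the range of the controls. The group means were -3.13 ± 1.38 (SD, n = 2) in MHs, 2.42 ± 0.35 (SD, n = 3) in control SHPCs and 0.69 ± 1.40 (SD, n = 3) in SHPCs with BM-MCs. The probe was well above background on all 7 arrays with a mark.

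The log2 fold change of H19 was 5.55 for control SHPCs over MHs (standard error, SE, 0.83, limma's Benjamini-Hochberg adjusted p = 0.031). For SHPCs with BM-MCs over MHs it was 3.83, or 14.2-fold (SE 0.83, adjusted p = 0.18 from limma). For SHPCs with BM-MCs over control SHPCs it was -1.73 (SE 0.67, adjusted p = 0.28 from limma), which did not pass the adjusted threshold, and the samples of these groups overlapped. Without MH replicate 1 the second of these values was 2.85 and without MH replicate 2 it was 4.8, and the third was -2.52 if replicate 3 with BM-MCs was left out and -1.20 if replicate 1 was. Within the first set of arrays on the slide the 2 control SHPC samples exceeded the 2 MHs by 5.48, and within the second set the samples with BM-MCs lay at -1.88 relative to the single control SHPC. With these sets as a block the adjusted p for control SHPCs over MHs was 0.063 from limma.

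The size of the H19 difference between control SHPCs and MHs lay between 4.58 and 6.53 in all 23 alternatives, and it passed the adjusted threshold in 13 of them. It no longer passed without MH replicate 1 (4.58, adjusted p = 0.21 from limma), without MH replicate 2 (6.53, adjusted p = 0.055 from limma), without control SHPC replicate 1 (5.75), 2 (5.43) or 3 (5.48), with adjusted p = 0.091, 0.12 and 0.063 from limma. It also did not pass without BM-MC SHPC replicate 2, which enters only through the shared estimate of the spread (5.55, adjusted p = 0.059 from limma).

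**Figure D2:**
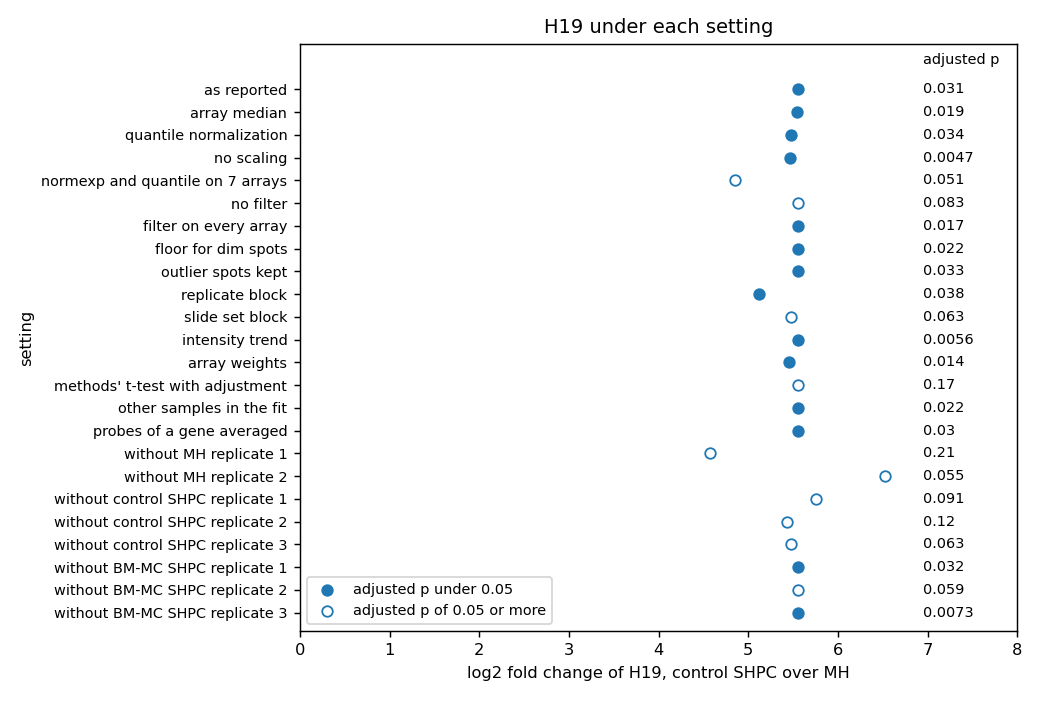
Log2 fold change of H19 for control SHPCs over MHs (horizontal axis) under each setting (vertical axis), with its adjusted p written at the right. Filled points passed the adjusted threshold of 0.05 and open points did not, and all points lie between 4.58 and 6.53.

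The mean level of genes of dividing cells lay in the same order as H19 over the groups. Of 18 such genes, among them Mki67, Top2a and Cdk1, 18 were tested, and 13 were called higher in control SHPCs than in MHs by limma with Benjamini-Hochberg adjustment, against 1.13% of all probes called. In this comparison 17 of 18 were above in every sample, against 18.7% of all probes, while Aurkb was below at -0.16, against 22.7%. With BM-MCs over MHs 17 of 18 were above, against 16% of all probes, and 8 were called, against 0.338%. Their mean level was -3.20 to -3.01 in MHs, -1.998 to -1.24 with BM-MCs and -0.997 to -0.57 in control SHPCs, and each of the 18 was well above background on all 7 arrays with complete marks. Mki67, the usual marker of cycling cells, had a log2 fold change of 2.92 for control SHPCs over MHs (adjusted p = 0.0033 from limma). With over without BM-MCs the 18 genes had a median log2 fold change of -0.84, with 13 of 18 below in every sample, against 11.6% of all probes, and 0 called. The genes whose levels followed H19 most closely over the 8 arrays were Slc25a4, Gask1a and Mcm6, with a Pearson r of 0.990 each, Mcm6 being a subunit of the replicative helicase. These arrays share the same 3 groups, and the part of dividing cells in the H19 levels was not tested. As each sample is a mixture of captured cells, more cells with a transcript and more of it per cell cannot be told apart, here and in all genes below.

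**Figure D3:**
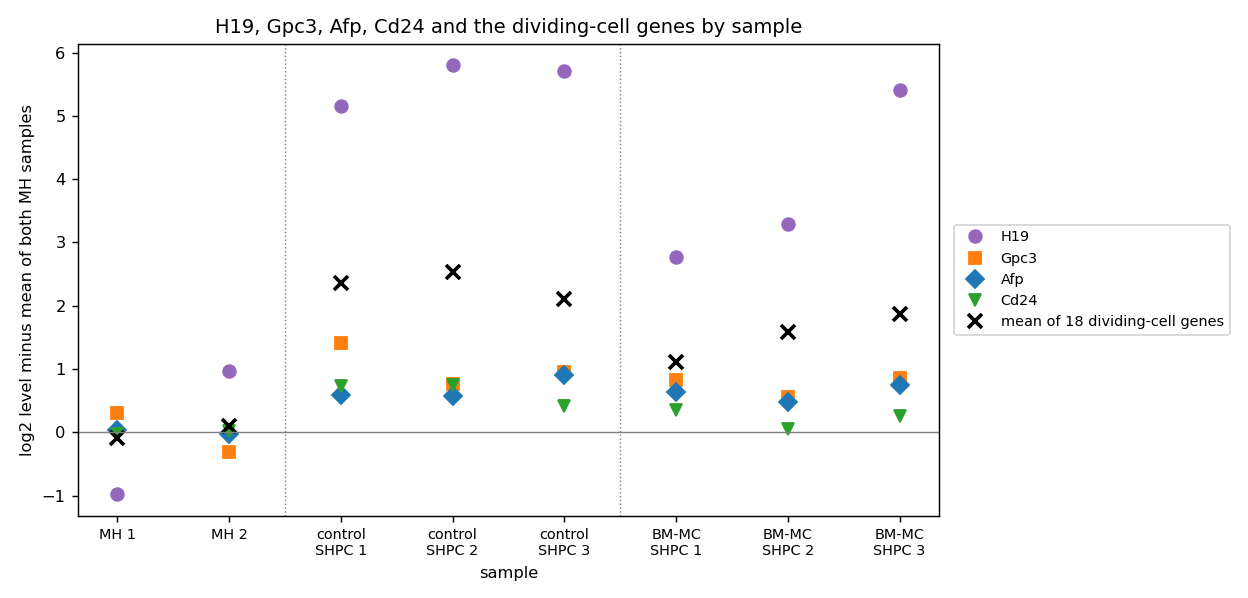
Level of H19, Gpc3, Afp, Cd24 and the mean of 18 genes of dividing cells in each sample (horizontal axis), as the log2 difference from the mean of both MH samples (vertical axis). H19 and the dividing-cell genes are on average highest in control SHPCs, with H19 of BM-MC SHPC replicate 3 within their range, and dotted lines separate the groups.

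Igf2, the fetal growth factor next to H19, did not show this pattern. Its brighter probe, averaged over 2 spots and at chr1:202906641-202906700 of rn4, 83.6 kb from the H19 probe and on the same strand, was at -4.22 and -3.53 in MHs, at -3.68, -4.16 and -5.12 in control SHPCs and at -4.05, -2.86 and -3.80 with BM-MCs. The probe was well above background on all 8 arrays. The 3 groups overlapped, with means of -3.88 ± 0.49 (SD, n = 2), -4.32 ± 0.73 (SD, n = 3) and -3.57 ± 0.63 (SD, n = 3). The log2 fold change was -0.44 for control SHPCs over MHs (SE 0.50, adjusted p = 0.65 from limma), 0.30 for SHPCs with BM-MCs over MHs (adjusted p = 0.82 from limma) and 0.74 with over without BM-MCs (SE 0.45, adjusted p = 0.43 from limma). With the sets of arrays as a block these values were -0.041, 1.5 and 1.54. The order of the 3 means is not separated by the spread between samples. A second Igf2 probe, 2.74 kb away, was not well above background on any of the 8 arrays. Over the 8 arrays Igf2 and H19 had a Pearson r of -0.21, given as a description. The genes closest to Igf2 in pattern were Agbl5 (r of 0.969), LOC102551023 (0.949) and Abi2 (0.946).

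Dlk1, a membrane protein of hepatoblasts that resembles Notch ligands, was near the limit of detection. Its level was -6.01 and -6.07 in MHs, both well above background, and -6.52, -5.22 and -5.46 with BM-MCs, where replicate 1 was not. In control SHPCs it was at -8.32, -6.81 and -6.01, and neither of the 2 arrays with a mark was well above background. As BM-MC SHPC replicate 1 was dim too, no bound on the fold with over without BM-MCs is given. On measured signals this log2 fold change was 1.32 (SE 0.63, adjusted p = 0.35 from limma). That value was 0.68 without control SHPC replicate 1, 1.83 without control SHPC replicate 3 and 0.28 within the second set of arrays. The groups overlapped in all 3 comparisons. For control SHPCs over MHs the log2 fold change was -1.01 on measured signals (adjusted p = 0.43 from limma). With dim spots set at the detection floor it was 0.14. The closest genes in pattern were Naip5 (r of 0.978), Cntn3 (0.972) and Mapkbp1 (0.971), a likeness that includes the arrays on which Dlk1 was not well above background.

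Meg3, the maternally expressed non-coding RNA of the Dlk1 cluster, was well above background on all 7 arrays with complete marks. It was at -4.15 and -3.25 in MHs, at -2.53, -2.29 and -0.51 in control SHPCs and at -1.39, -2.28 and -0.92 with BM-MCs, and every SHPC sample was above both MHs. Its log2 fold change was 1.92 for control SHPCs over MHs (SE 0.66, adjusted p = 0.20 from limma) and 2.17 for SHPCs with BM-MCs over MHs (adjusted p = 0.29 from limma). This is the brightest of its 4 tested probes. The other 3 overlapped between control SHPCs and MHs, with log2 fold changes of -0.59, 0.20 and 0.35, so that the probes disagree.

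Afp encodes alpha-fetoprotein, the main plasma protein of the fetus, and was well above background on every array. Its level was 2.27 and 2.20 in MHs, 2.83, 2.82 and 3.14 in control SHPCs and 2.87, 2.72 and 2.99 with BM-MCs. Both kinds of SHPCs lay above the MHs in every sample and overlapped each other. The means were 2.24 ± 0.046 (SD, n = 2) in MHs, 2.93 ± 0.18 (SD, n = 3) in control SHPCs and 2.86 ± 0.13 (SD, n = 3) in SHPCs with BM-MCs, the last 2 of which did not differ beyond their spread. The log2 fold change was 0.69 for control SHPCs over MHs, or 1.62-fold (SE 0.15, adjusted p = 0.087 from limma), 0.63 for SHPCs with BM-MCs over MHs (SE 0.15, adjusted p = 0.21 from limma) and -0.07 with over without BM-MCs (SE 0.14, adjusted p = 0.83 from limma). With an intensity trend in limma the first of these passed (adjusted p = 0.027 from limma), the second was 0.31 with the sets of arrays as a block, and the last changed sign under quantile normalization (0.045). Afp followed Ddc (r of 0.985), Nupr2 (0.983) and Glod5 (0.977) most closely.

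Gpc3, a heparan sulfate proteoglycan on the cell surface that binds growth factors, was dim. It was at -5.82 and -6.44 in MHs, at -4.72, -5.36 and -5.17 in control SHPCs and at -5.30, -5.58 and -5.27 with BM-MCs. MH replicate 2 and BM-MC SHPC replicate 2 were not well above background, and every SHPC sample was above both MHs. The means were -6.13 ± 0.44 (SD, n = 2), -5.08 ± 0.33 (SD, n = 3) and -5.38 ± 0.17 (SD, n = 3), and the SHPC groups overlapped. Control SHPCs were 2.06-fold above MHs (log2 fold change 1.04, SE 0.25, adjusted p = 0.12 from limma), and SHPCs with BM-MCs 1.68-fold (log2 fold change 0.75, adjusted p = 0.31 from limma). Both differences rest in part on the dim MH replicate 2. Without it they were 0.73 and 0.44, and after normexp correction followed by quantile normalization (7 arrays) they were 0.40 and 0.15. With over without BM-MCs the log2 fold change was -0.29 (SE 0.19, adjusted p = 0.47 from limma). Its closest genes in pattern were Fam13a (r of 0.967), Entpd2 (0.945) and Wdr93 (0.944).

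**Figure D4:**
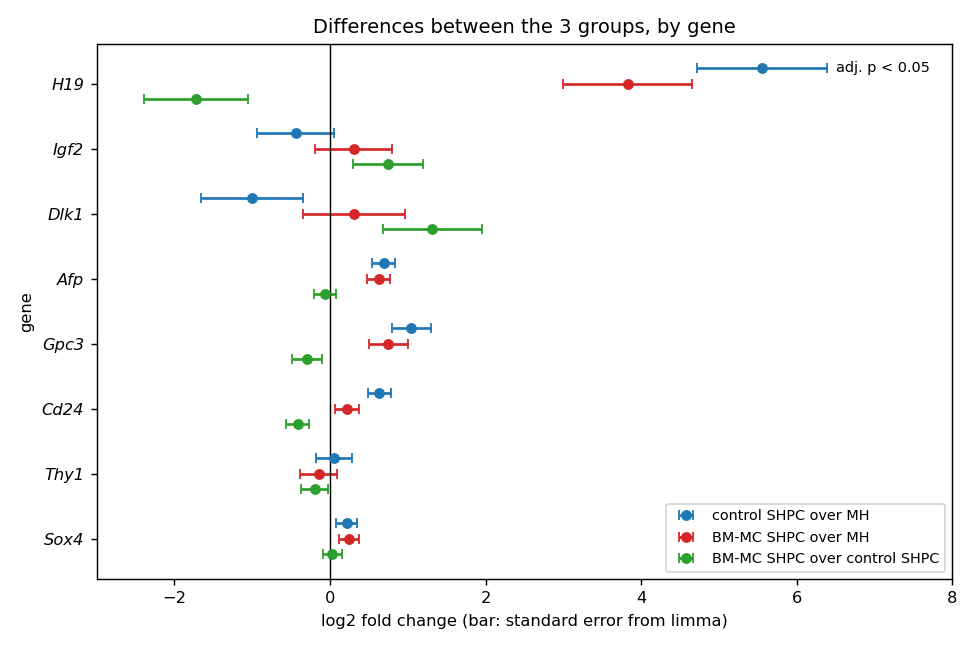
Log2 fold change of each gene (horizontal axis) in the 3 comparisons between groups, with bars for the standard error from limma. H19 in control SHPCs over MHs, at 5.55, is the only difference that passed the adjusted threshold.

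Cd24 encodes a small mucin-like surface protein of immature cells and of bile duct, blood and tumour cells. It was at -1.31 and -1.25 in MHs, at -0.55, -0.54 and -0.86 in control SHPCs and at -0.93, -1.23 and -1.03 with BM-MCs. The 3 groups did not overlap, in the order MHs, SHPCs with BM-MCs and control SHPCs, and BM-MC SHPC replicate 2 lay just above the MHs. The means were -1.28 ± 0.041 (SD, n = 2), -1.06 ± 0.15 (SD, n = 3) and -0.65 ± 0.18 (SD, n = 3). Control SHPCs were 1.55-fold above MHs (log2 fold change 0.64, SE 0.15, adjusted p = 0.12 from limma). SHPCs with BM-MCs were at 0.22 over MHs (adjusted p = 0.55 from limma) and at -0.42 over control SHPCs (SE 0.14, adjusted p = 0.26 from limma). Within the second set of arrays the last difference was -0.20, with the sets as a block the difference with BM-MCs over MHs was 0.54, and with array weights the first passed (adjusted p = 0.049 from limma).

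Markers of other cells were compared between the SHPC groups, where 11.6% of all probes were lower in every sample with BM-MCs. All 3 tested of 9 granulocyte markers, S100a8, S100a9 and Retnlg, were lower in every sample with BM-MCs than in every control SHPC (median log2 fold change -1.46), with mean levels of -3.46 to -3.14 with BM-MCs, -2.04 to -1.48 in control SHPCs and -3.39 to -1.58 in MHs, while the other 6, among them Mpo and Elane, were well above background on no array with complete marks. Of 6 tested of 9 erythroid markers 5 were likewise lower in every sample (median -1.28), with mean levels of -2.94 to -2.85 with BM-MCs, -2.37 to -1.15 in control SHPCs and -2.51 to -2.04 in MHs, and Epb42, Gata1 and Hemgn were well above background on none. Of 8 tested of 10 biliary markers 2 were lower in every sample with BM-MCs, 6 overlapped and 3 had a higher mean (median -0.35), and their mean level was -5.33 to -4.95 in MHs, -4.60 to -4.14 in control SHPCs and -4.94 to -4.31 with BM-MCs. None of these markers was called in any comparison by limma with Benjamini-Hochberg adjustment, and their part in the Cd24 levels was not tested. Cd24 followed H2az2 (r of 0.985), Eef1akmt1 (0.972) and Itgb3bp (0.97) most closely.

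Thy1 (CD90), a surface protein of mesenchymal cells and some progenitors, is also one of the surface proteins for which the study stained BM-MCs. Its brighter probe was at -2.13 and -2.77 in MHs, at -2.20, -2.35 and -2.64 in control SHPCs and at -2.85, -2.45 and -2.50 with BM-MCs. The 3 groups overlapped, and the means of -2.45 ± 0.45 (SD, n = 2), -2.40 ± 0.22 (SD, n = 3) and -2.60 ± 0.22 (SD, n = 3) were not separated by the spread. The log2 fold change was 0.049 for control SHPCs over MHs (SE 0.24), -0.15 for SHPCs with BM-MCs over MHs (SE 0.24) and -0.20 with over without BM-MCs (SE 0.17), with adjusted p = 0.93, 0.81 and 0.58 from limma. A second Thy1 probe was not well above background on any of the 7 arrays with a mark. Nt5e, Cd44 and Itgb1 encode others of these proteins, and Eng encodes CD105, which the study reports on few BM-MCs. These genes differed by a median of -0.04 between SHPCs with and without BM-MCs, and 0 of the 4 was called. Of 10 T and NK cell markers 6 were tested, with mean levels of -2.50 to -2.38 in MHs, -2.45 to -2.02 in control SHPCs and -2.56 to -2.12 with BM-MCs. Cd3e and Cd5 were well above background on no array with complete marks, while Cd3d and Cd3g were on all 7. Of 12 mesenchymal markers 11 were tested, with mean levels of -1.74 to -1.45, -1.67 to -1.53 and -1.65 to -1.15 in the same order, and Lum was well above background on none. Of the 11, 1 was called between control SHPCs and MHs, against 1.13% of all probes. This was Rgs5, a pericyte gene, lower in control SHPCs (-1.09, adjusted p = 0.034 from limma). In that comparison 2 were above and 3 below in every sample, near the 18.7% and 22.7% of all probes. With over without BM-MCs 3 of the 11 were above and 0 below, against 13% and 11.6% of all probes. The part of these cells in the Thy1 levels was not tested. The closest genes in pattern were Kdm1b (r of 0.980), Edf1 (0.976) and LOC102553021 (0.967).

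Sox4, a transcription factor of progenitor and tumour cells, had the smallest range over the 8 samples. Its brightest probe, averaged over 2 spots, was at -2.55 and -2.71 in MHs, at -2.37, -2.36 and -2.51 in control SHPCs and at -2.24, -2.41 and -2.50 with BM-MCs. Every SHPC sample was above both MHs, by a narrow margin, and the SHPC groups overlapped. The log2 fold change was 0.21 for control SHPCs over MHs (SE 0.13, adjusted p = 0.40 from limma), 0.24 for SHPCs with BM-MCs over MHs (adjusted p = 0.45 from limma) and 0.031 with over without BM-MCs (SE 0.12, adjusted p = 0.91 from limma). Its other 2 tested probes overlapped between groups in all 3 comparisons, and the dimmest of them was well above background on 3 of 7 arrays. The closest genes in pattern were Dbil5 (r of 0.942), Vwf (0.929) and H1f1 (0.927), Vwf by the dimmer of its 2 tested probes.

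Around the 8 genes, 79 related genes in 5 lists were described by counts, of which 62 were tested and 0 were called in each comparison by limma with Benjamini-Hochberg adjustment. At an unadjusted p under 0.05 from limma the count was 20 (32.3%) for control SHPCs over MHs against 19.2% of all probes, 13 (21.0%) for SHPCs with BM-MCs over MHs against 13.3%, and 11 (17.7%) with over without BM-MCs against 16.6%. After adjustment the methods' t-test also called 0. In control SHPCs against MHs 10 (16.1%) were above and 19 (30.6%) below in every sample, against 18.7% and 22.7% of all probes.

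Of 25 other oncofetal genes 18 were tested. Peg10, an imprinted gene derived from a retrotransposon, had the largest difference with over without BM-MCs. It was at -4.12, -3.48 and -3.96 with BM-MCs, all well above background, and at -7.11, -8.42 and -5.91 in control SHPCs, where neither array with complete marks was. With the dim arrays set at the detection floor it was at least 4.12-fold higher with BM-MCs (adjusted p = 0.13 from limma on measured signals), and it was at -8.24 and -4.98 in the MHs, below every sample with BM-MCs (adjusted p = 0.33 from limma), 1 of these 2 arrays being well above background, so that no fold is given. Spink1, a secreted trypsin inhibitor, was at -5.64 and -3.90 in MHs, at -2.42, -1.82 and -3.32 in control SHPCs and at -5.15, -3.37 and -2.74 with BM-MCs. Control SHPCs lay above both MHs (log2 fold change 2.25, adjusted p = 0.21 from limma), the size depending on MH replicate 1. With over without BM-MCs the groups overlapped, and the log2 difference between means, -1.23 (adjusted p = 0.40 from limma), rested largely on BM-MC SHPC replicate 1. Ptn, a heparin-binding growth factor, was above both MHs in every SHPC sample, at 1.92 on measured signals for control SHPCs over MHs (SE 0.48, adjusted p = 0.13 from limma) and at 1.63 with BM-MCs. It was well above background on 1 of 2 MH arrays and on 2 of 3 arrays with BM-MCs, so that these sizes are limited by detection. Igf2bp1, Lin28b, Trim71, Cldn6 and Igdcc4 were well above background on no array with complete marks.

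Of 14 regulators of Afp 14 were tested. Zbtb20, a repressor of Afp after birth, was at -2.37 and -2.67 in MHs, at -3.04, -3.01 and -2.71 in control SHPCs and at -2.25, -1.71 and -1.83 with BM-MCs. Every sample with BM-MCs was above every other sample, and control SHPCs lay lowest (log2 fold change 0.99 with over without BM-MCs, SE 0.18, adjusted p = 0.13 from limma, and 0.59 over MHs, adjusted p = 0.32 from limma). Zhx2, another repressor of Afp, was below both MHs in every SHPC sample, with a log2 fold change of -0.58 for control SHPCs (SE 0.15, adjusted p = 0.13 from limma) and -0.41 with BM-MCs (adjusted p = 0.34 from limma). Gata4, a factor of the liver endoderm, was at 0.40 with over without BM-MCs (adjusted p = 0.31 from limma).

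Of 16 imprinted genes 13 were tested, with a median log2 fold change of -0.42 for control SHPCs over MHs against -0.03 over all probes, 6 of 13 being below both MHs in every sample and Meg3 alone, by its brightest probe, above, against 22.7% and 18.7% of all probes. Nnat, a small membrane protein, was at 0.67 with over without BM-MCs (adjusted p = 0.18 from limma). Dcn, a matrix proteoglycan, was at 1.12 for control SHPCs over MHs (adjusted p = 0.25 from limma), a size that rests on MH replicate 1, since the MHs were at -4.77 and -3.09 and control SHPCs averaged -2.81, and the groups overlapped. Grb10, an adaptor that inhibits the insulin and IGF receptors, was well above background on 3 of 7 arrays, 1 in each group. It was at -6.79 and -2.998 in MHs, from -6.44 to -5.52 in control SHPCs and from -7.40 to -5.22 with BM-MCs, so that the MHs lay on both sides of most SHPC samples and no fold is given.

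Of 13 genes of the IGF axis, the receptors, binding proteins and substrates through which Igf2 acts, 11 were tested. Irs2, a substrate of the insulin and IGF receptors, was above both MHs in every SHPC sample, at 0.70 for control SHPCs (adjusted p = 0.28 from limma) and 1.23 with BM-MCs (SE 0.31, adjusted p = 0.23 from limma), and at 0.53 with over without BM-MCs. Igf1r, the signalling receptor for Igf2, was at -1.15 for control SHPCs over MHs (SE 0.38, adjusted p = 0.18 from limma) and at 0.89 with over without BM-MCs (adjusted p = 0.30 from limma), on measured signals, since 1 of the 2 control SHPC arrays with complete marks was not well above background. Irs1 was at 0.33 for SHPCs with BM-MCs over MHs (adjusted p = 0.54 from limma).

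Of 11 relatives of these genes by family 6 were tested. Afm, an albumin family member beside Afp, was at 0.38 for control SHPCs over MHs (adjusted p = 0.35 from limma) and at -0.23 with over without BM-MCs, and Gc, the vitamin D-binding protein of that family, at -0.16 for SHPCs with BM-MCs over MHs. Gpc1 was at -0.20 with over without BM-MCs. Gpc6 was dim in control SHPCs, and MHs were at least 1.21-fold above them (adjusted p = 0.32 from limma).

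**Figure D5:**
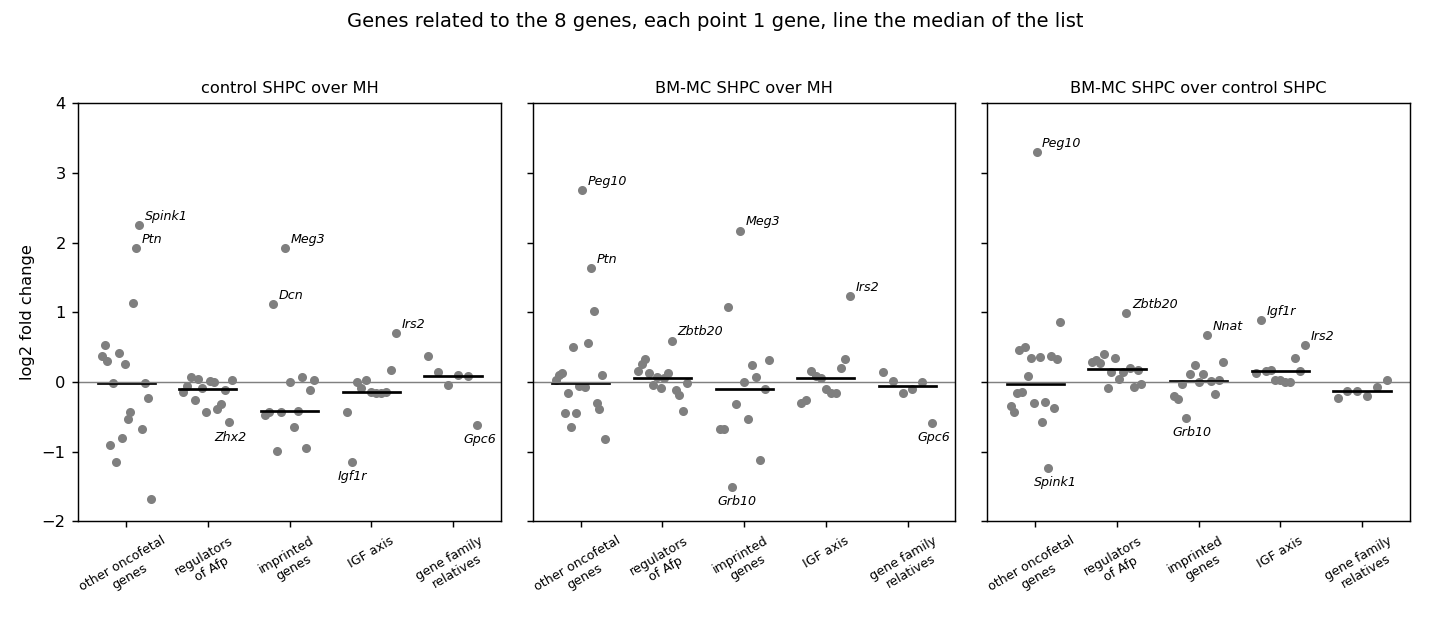
Log2 fold change (vertical axis) of the 62 tested related genes in the 3 comparisons, by list (horizontal axis), each point 1 gene and each line the median of its list. The 2 genes farthest from 0 in each list are named where they exceed 0.5, among them Peg10 at 3.29 on measured signals with over without BM-MCs, where control SHPCs were dim and the bound is at least 4.12-fold, and none passed the adjusted threshold.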

How the data were processed

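RNA of 8 LMD samples was hybridised to 1-colour Agilent rat arrays. The values deposited by the authors are processed signals, that is, intensity after background subtraction in Agilent Feature Extraction 10.7 (10.7.3.1 in the file headers, 10.7 in the submitters' processing notes), with no log2 transformation and unscaled across arrays. The deposited marks for background and outliers come from the same files. For control SHPC replicate 2 the file ends at 20903 of 62976 features, so signals of all 8 samples were taken from the value table, and its marks were not used for the filter. The number of arrays limits the precision.

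From these values, log2 signals minus each array's 75th percentile were computed, outlier spots left out and spots of 1 probe averaged. Of 45598 probes, 23111 entered the test (limma 3.58.1, R 4.3.3), p-values being adjusted by Benjamini-Hochberg over them all at a threshold of 0.05, on the 6 SHPC samples for BM-MCs against control and on all 8 samples otherwise. The procedure was tested on simulated data for SHPCs with BM-MCs against control SHPCs only, and not for the fits on all 8 samples. Gene names came from RefSeq's table for GRCr8, for 21109 probes by accession, 6684 by symbol and 424 by synonym, while 7635 kept the file's name and 9746 had none. A synonym counted with its gene. Named were the 8 genes, in each related list the 2 genes farthest from 0 in each comparison, and 3 genes per member closest in Pearson r. Of these, 1 gene is not reported here. The members and lists were chosen with earlier results of these data known. Meg3 in every sample, H19 and Cd24 within sets of arrays, and the undetected markers were added outside this rule. Alternatives were other scalings, normexp with an offset of 50, filters on dim probes, a floor for dim spots (the lowest signal well above background on the array), outlier spots kept, blocks, an intensity trend, array weights, the methods' t-test, other samples, averaged probes and each sample left out.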

Additional observations from a re-analysis of the deposited data

How the results depend on the processing

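Over 530 refits of the 8 genes in 3 comparisons, 499 kept the direction and the side of the threshold, 19 reversed the direction, 10 lost the call and 2 gained one. The 10 lost calls were of H19 in control SHPCs over MHs. The number of the 8 genes called there, 1, became 0 by the methods' t-test after adjustment, with the slide set as a block, with no filter and with normexp followed by quantile normalization (7 arrays), and 2 with an intensity trend and with array weights. With each sample left out it ran from 0 to 1. The 0 related genes called became 1 without scaling and 2 with array weights for SHPCs with BM-MCs over control SHPCs, and 1 with an intensity trend for SHPCs with BM-MCs over MHs. With each sample left out they ran from 0 to 1 in the first comparison (1 without control SHPC replicate 3), from 0 to 1 for control SHPCs over MHs (1 without BM-MC SHPC replicate 1) and were 0 in the third. The causes were not tested.

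None of the reversed values passed the threshold. For BM-MCs over control SHPCs these were Afp with quantile normalization (0.045) and with samples left out (-0.13 to 0.038), Sox4 with array medians (-0.16), quantile normalization (-0.056), normexp and quantile normalization (-0.0085) and samples left out (-0.040 to 0.089), and Thy1 with the slide set as a block (0.047). For control SHPCs over MHs these were Dlk1 with a floor (0.14) and Thy1 without scaling (-0.039) and with samples left out (-0.27 to 0.37). For SHPCs with BM-MCs over MHs these were Dlk1 with the slide set as a block (-1.24), Igf2 with samples left out (-0.050 to 0.65) and Thy1 with that block (0.22) and samples left out (-0.47 to 0.17). Scaling to array medians shifted every log2 fold change with over without BM-MCs by -0.19 and that of SHPCs with BM-MCs over MHs by -0.20.

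Pairing by replicate number could not be settled. Same-numbered samples of different groups had correlations of -0.13 to 0.17, and differently numbered ones of -0.15 to 0.13. Between the SHPC groups same-numbered samples had correlations of 0.13, 0.078 and 0.17, and differently numbered ones of -0.15 to 0.082. The values of the MHs are mirror images of each other and cannot test this. With the replicate number as a block H19 was at 5.12 in control SHPCs over MHs (adjusted p = 0.038 from limma), and Dlk1 at -0.018 for SHPCs with BM-MCs over MHs, a reversal. The block changed no other direction or call of the 8 genes.

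Dlk1, Gpc3 and the second probes of Igf2 and Thy1 lay near background, so their differences are limited by detection. All arrays shared 1 slide and 1 scan, which could not be fitted as blocks. Normexp was not run on control SHPC replicate 2, whose file is incomplete.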
